A study of Mus musculus with 32 samples.

Results

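The keratin genes are described here through their open chromatin during the reprogramming of mouse fibroblasts to pluripotent stem cells. They were chosen by symbol alone, as the protein-coding genes of the RefSeq gene table for mouse (GRCm38.p6) named Krt with a number and at most 1 letter. The rule found 53 of 21887 protein-coding genes, 27 in the cluster on chromosome 11 between 99222761 and 100279951 and 26 in the cluster on chromosome 15 between 101338315 and 102042026 (both with a 10 kb flank). ATAC-seq, which marks open chromatin where a transposase inserts sequencing adapters, was run on 32 samples in 15 groups, and each group has 1 deposited list of peaks. A keratin peak is a peak whose centre lies in a keratin gene or within 10 kb of it, counted once for a cluster even where windows of neighbouring genes overlap.

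All samples were derived from OG2 mouse embryonic fibroblasts, which carry a GFP reporter of Oct4, and were labelled as reprogramming cells under Oct4, Sox2, Klf4 and c-Myc (OSKM). At day 0 there were cells with the control shRNA (shLuci) and cells with CTCF shRNA, each with 2 samples (no source used here says whether OSKM was already present). The sorted populations came from a doxycycline-inducible TetOn lentiviral OSKM system and were also made with control or CTCF shRNA. They were Thy1+ cells (3 samples each, from days 3, 6 and 9), SSEA1-Thy1- cells and SSEA1+ cells (2 samples each, from days 6 and 9), and GFP+ cells (2 samples each, from day 12). At day 10 unsorted OSKM cells overexpressed CTCF, with or without Smarca5 shRNA, or carried an overexpression control (2 samples in each of the 3 groups). At day 12 unsorted cells carried the control shRNA or Smarca5 shRNA (2 samples each). The treatment protocol places infected cells in stem cell medium with vitamin C. Because a group has 1 list, no value below has a replicate check, no test was run and no p-value is given. In bulk samples, a site open in fewer cells and a site less open in each cell cannot be told apart.

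Keratins form the intermediate filaments of epithelial cells. Each filament is an obligate heteropolymer of an acidic type I and a basic type II keratin, and the type I genes lie together on mouse chromosome 11 and the type II genes on chromosome 15, with Krt18 as the type I gene that sits beside its type II partner Krt8. Fibroblasts build their filaments from vimentin instead. Krt8 and Krt18 are the pair of simple epithelia and the earliest keratins of the embryo, Krt5 and Krt14 mark basal keratinocytes, Krt1 and Krt10 the differentiating epidermis, and a large remainder serves hair and its root sheaths.

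The whole lists set the scale. After overlapping intervals were merged they held 43618 peaks (day 12 control) to 213386 peaks (Thy1+ cells with CTCF shRNA), and read depth is unknown. Peak positions were placed separately in the day 0 and sorted lists, the day 10 lists and the day 12 lists. Of 53 keratin peaks in the day 10 control list, 41 overlapped a peak of the SSEA1+ control list but 1 had the identical position, whereas all 65 shared peaks of the SSEA1+ and Thy1+ control lists were identical. Peaks lost or gained and differences per member were therefore counted only within these 3 sets. Where lists of several sets stand side by side, their values describe each list, and no difference is read from them, since list size and peak placement differ too. All 8 fibroblast marker genes had at least 1 peak within 10 kb in each list, and their peaks summed to 79 at day 0 and 31 in the GFP+ control. The 6 pluripotent cell markers had 23 and 48, and each had a peak in both lists.

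A site is called open in a list that holds a peak there and closed in a list that does not. Of the 53 keratins, 36 had an entry in the RefSeq promoter table, which gives 250 bases before to 50 bases after a start, and Krt13 has an entry for each of 2 starts. Those without an entry were Krt1, Krt4, Krt6a, Krt6b, Krt15, Krt16, Krt17, Krt19, Krt33a, Krt35, Krt80, Krt81, Krt83, Krt86, Krt87, Krt88 and Krt222. The starts of these 17 were not examined, since the gene table gives no strand. Of the 36, only Krt18, Krt8, Krt7, Krt2 and Krt13 ever had a peak over this window in any of the 15 lists. Their promoters are shown here because these are the starts found open among the 36 members examined, and that of Krt10, which never had such a peak, is shown as a contrast. Sequences are from RefSeq (GRCm38.p6), 5′ to 3′ on the strand of the gene. Capitals mark matches, on either strand, to the TATA box (TATAAA), the AP-1 site (TGANTCA), the Klf and Sp site (CCNCNCCC) or the AP-2 site (GCCNNNGGC), with overlapping matches run together.
Krt18, chr15:102027966-102028265, plus strand: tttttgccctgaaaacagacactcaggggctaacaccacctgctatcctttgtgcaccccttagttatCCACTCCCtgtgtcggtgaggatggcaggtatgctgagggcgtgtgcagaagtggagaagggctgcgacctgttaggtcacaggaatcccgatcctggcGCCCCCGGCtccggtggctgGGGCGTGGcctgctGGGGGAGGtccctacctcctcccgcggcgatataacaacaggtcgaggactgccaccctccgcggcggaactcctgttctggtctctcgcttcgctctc
Krt8, chr15:102004293-102004592, minus strand: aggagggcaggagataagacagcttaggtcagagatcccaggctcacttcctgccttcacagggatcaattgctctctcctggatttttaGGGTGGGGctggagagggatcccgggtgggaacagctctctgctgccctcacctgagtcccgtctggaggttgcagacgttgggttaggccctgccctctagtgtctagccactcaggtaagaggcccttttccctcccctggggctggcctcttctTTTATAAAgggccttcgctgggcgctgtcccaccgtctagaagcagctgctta
Krt7, chr15:101412153-101412452, plus strand: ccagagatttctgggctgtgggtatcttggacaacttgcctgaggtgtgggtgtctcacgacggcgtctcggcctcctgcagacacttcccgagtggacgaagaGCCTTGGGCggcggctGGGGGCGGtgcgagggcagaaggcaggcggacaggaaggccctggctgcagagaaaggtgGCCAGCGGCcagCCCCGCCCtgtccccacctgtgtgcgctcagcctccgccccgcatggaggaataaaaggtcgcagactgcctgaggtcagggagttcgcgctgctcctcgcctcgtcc
Krt2, chr15:101818120-101818419, minus strand: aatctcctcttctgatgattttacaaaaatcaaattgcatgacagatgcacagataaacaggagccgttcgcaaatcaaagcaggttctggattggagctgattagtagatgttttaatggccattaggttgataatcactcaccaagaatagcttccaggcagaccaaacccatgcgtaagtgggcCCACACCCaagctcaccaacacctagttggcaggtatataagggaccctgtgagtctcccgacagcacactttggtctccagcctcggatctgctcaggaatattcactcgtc
Krt13, outer start, chr11:100121517-100121816, minus strand: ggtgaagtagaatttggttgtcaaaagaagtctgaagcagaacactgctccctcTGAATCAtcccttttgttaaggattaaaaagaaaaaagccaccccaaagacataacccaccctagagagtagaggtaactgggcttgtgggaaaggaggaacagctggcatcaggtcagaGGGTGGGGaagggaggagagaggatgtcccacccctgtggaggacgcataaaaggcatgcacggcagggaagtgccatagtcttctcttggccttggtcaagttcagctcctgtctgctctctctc
Krt13, inner start, chr11:100120528-100120827, minus strand: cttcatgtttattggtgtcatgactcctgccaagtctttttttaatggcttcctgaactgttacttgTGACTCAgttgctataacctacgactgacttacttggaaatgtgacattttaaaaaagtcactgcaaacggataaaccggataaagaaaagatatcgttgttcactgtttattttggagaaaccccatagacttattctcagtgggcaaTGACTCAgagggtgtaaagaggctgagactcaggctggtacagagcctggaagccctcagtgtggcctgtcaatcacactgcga
Krt10, chr11:99389315-99389614, minus strand: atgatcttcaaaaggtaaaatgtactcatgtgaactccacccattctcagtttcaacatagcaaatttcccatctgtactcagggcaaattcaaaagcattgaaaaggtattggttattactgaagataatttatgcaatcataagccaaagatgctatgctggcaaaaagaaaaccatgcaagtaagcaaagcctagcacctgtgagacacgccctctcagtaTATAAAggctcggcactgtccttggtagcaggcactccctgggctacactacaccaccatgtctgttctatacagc

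The promoters of Krt18 and Krt7 hold 17 and 21 CpG dinucleotides, the highest numbers among the 37 keratin promoters, and have a GC content of 61.3% and 66.3%. Those of Krt8 and Krt2 hold 6 CpG each, and the outer and inner starts of Krt13 hold 2 and 5. The median keratin promoter had 5 CpG and a GC content of 48.7%, against 13 CpG and 56.3% over the 21263 promoters of protein-coding genes in the table. The TATA letters occurred in 19 of 37 keratin promoters (51.4%) and in 12.6% of all promoters. In Krt10 the match begins at -26 from the start, and in Krt25, Krt28 and Krt73 at -30. In Krt8 the matches begin at -3 and -1 from the start the table gives. The AP-1 letters were found only at Krt13 among the keratins, in both of its windows, at -196 in the outer one and at -183 and -34 in the inner one, so in 2 of 37 windows (5.41%) against 6.99% of all promoters. Klf and Sp letters were in 15 of 37 (40.5%) against 56.6%, and AP-2 letters in 7 of 37 (18.9%) against 19.9%. The octamer letters (ATTTGCAT) and the core of the CTCF motif were in none of the 37, against 1.66% and 2.34% of all promoters. These matches are a description of letters in a window.

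**Figure D1:**
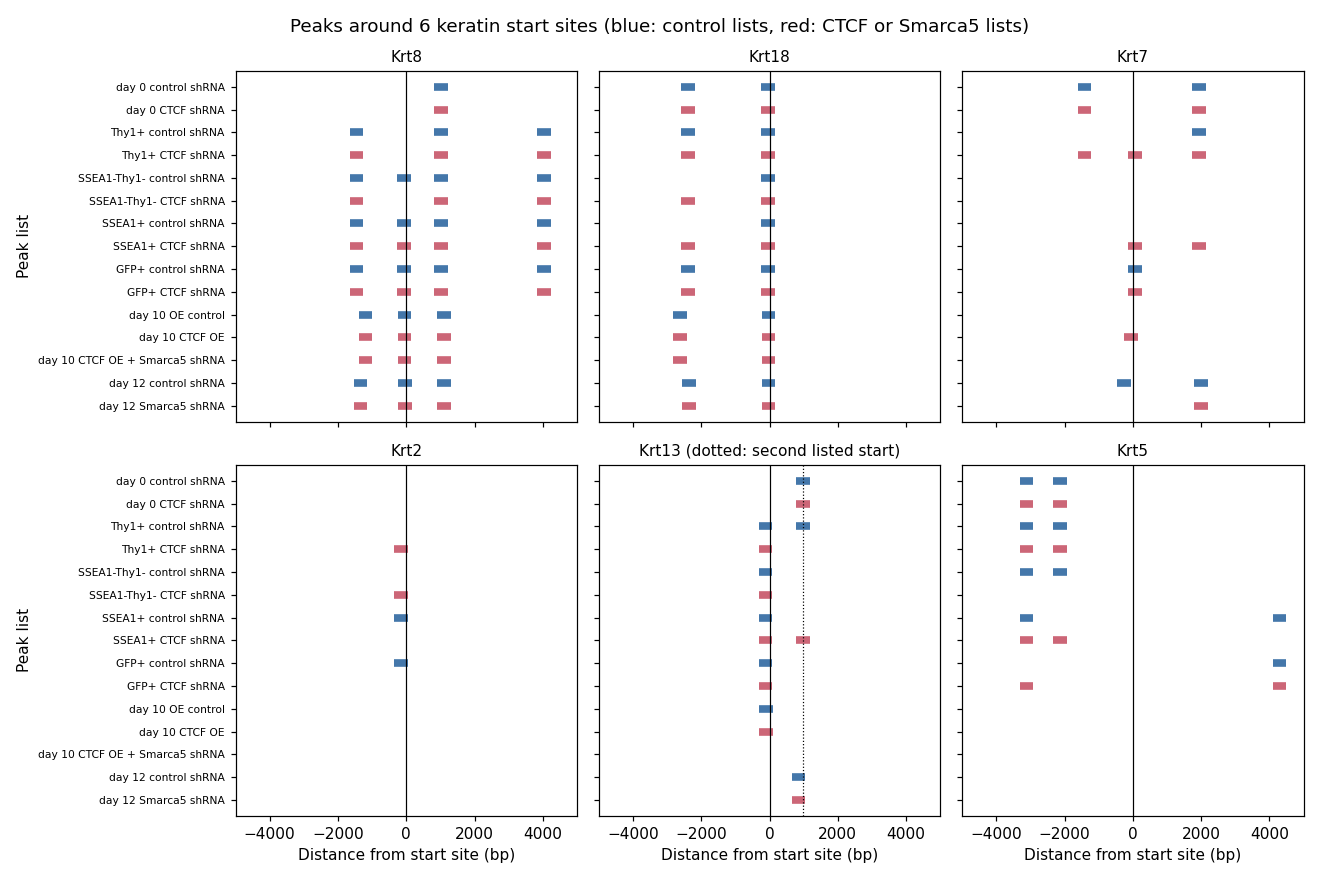
Peaks (bars) within 5 kb of 6 keratin start sites; the x axis is the distance from the start in bp along the direction of transcription, and each row is 1 of the 15 lists, with control lists in blue and CTCF or Smarca5 lists in red. The Krt18 start has a peak in all 15 rows, the Krt8 start in 10, the Krt7 start in 6 and the Krt2 start in 4, the Krt13 peaks shift between its 2 starts, and the Krt5 start has none.

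Among the 36 members with a promoter entry, start sites were closed far more often than the promoters of all protein-coding genes. The starts of members without an entry were not examined, so this does not describe all keratins. Of these members, Krt80, Krt19 and Krt6b had a site over the higher boundary in 15, 11 and 6 lists. Whether these sites mark starts was not tested. Between 2 and 5 of the 36, counted by member, had a peak over the window, against 51.6% to 58.0% of all promoters, counted by promoter. In the control series the number was 2 at day 0 and 2, 3, 4 and 5 across the Thy1+, SSEA1-Thy1-, SSEA1+ and GFP+ lists. This order held for the promoter window only: within 1 kb of the start the same lists gave 7, 7, 6, 6 and 9 members and within 2.5 kb 12, 12, 10, 8 and 11.

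The Krt18 start (peak at chr15:102027975-102028381) was open in all 15 lists, fibroblasts included. The Krt8 start (chr15:102004187-102004615) was closed in both day 0 lists, in both Thy1+ lists and in SSEA1-Thy1- cells with CTCF shRNA, and open in the SSEA1-Thy1- control and in all lists of SSEA1+ cells, GFP+ cells, day 10 and day 12. A second Krt8 site downstream of the start (chr15:102003035-102003532) was open in all 15 lists, and 1 upstream (chr15:102005334-102006003) was open in all but the day 0 lists. The partners of this filament pair thus differed at day 0, where the Krt18 start was open and the Krt8 start was not. Between the genes, a site 9449 bp from Krt8 (chr15:102013574-102014010) was present in every list.

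The Krt7 start (chr15:101411954-101412666), which belongs to a type II keratin of simple and ductal epithelia, was closed in the day 0, Thy1+, SSEA1-Thy1- and SSEA1+ control lists and open in the GFP+ control. With CTCF shRNA it was open in Thy1+, SSEA1+ and GFP+ cells and closed at day 0 and in SSEA1-Thy1- cells. It was also open with CTCF overexpression at day 10 and in the day 12 control, and closed in the day 10 control, with added Smarca5 shRNA at day 10 and with Smarca5 shRNA at day 12. The Krt2 start (chr15:101818118-101818517), of a keratin of late epidermal differentiation, was open in the SSEA1+ and GFP+ control lists and, with CTCF shRNA, in Thy1+ and SSEA1-Thy1- cells. It was therefore in exactly 1 list of each of the 4 sorted pairs, gained in 2 and lost in 2.

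Krt13, the type I keratin of internal stratified epithelia, differed between its starts. The inner start (chr11:100120395-100120919) was open in both day 0 lists, in the Thy1+ control, in SSEA1+ cells with CTCF shRNA and in both day 12 lists. The outer start (chr11:100121476-100121887) was closed at day 0, open in all 8 lists of the sorted populations and in the day 10 control and CTCF overexpression lists, and closed at day 12. In the Thy1+ control and in SSEA1+ cells with CTCF shRNA both were open. With CTCF overexpression plus Smarca5 shRNA no Krt13 site was in the list.

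Across all 53 members, the day 0 control list held 76 keratin peaks, and the Thy1+, SSEA1-Thy1-, SSEA1+ and GFP+ control lists held 101, 78, 79 and 67. The day 10 control held 53 and the day 12 control 30. The whole lists shrank more from day 0 to GFP+ cells, so the keratin share of a list was higher, at 49.4 keratin peaks per 100000 peaks at day 0 and 51.9, 51.6, 58.2 and 73.4 in the same 4 populations. Per 100 kb of gene windows the keratins held 7.11 peaks at day 0 against 7.66 for the windows of all protein-coding genes, and 6.27 against 5.12 in GFP+ cells.

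**Figure D2:**
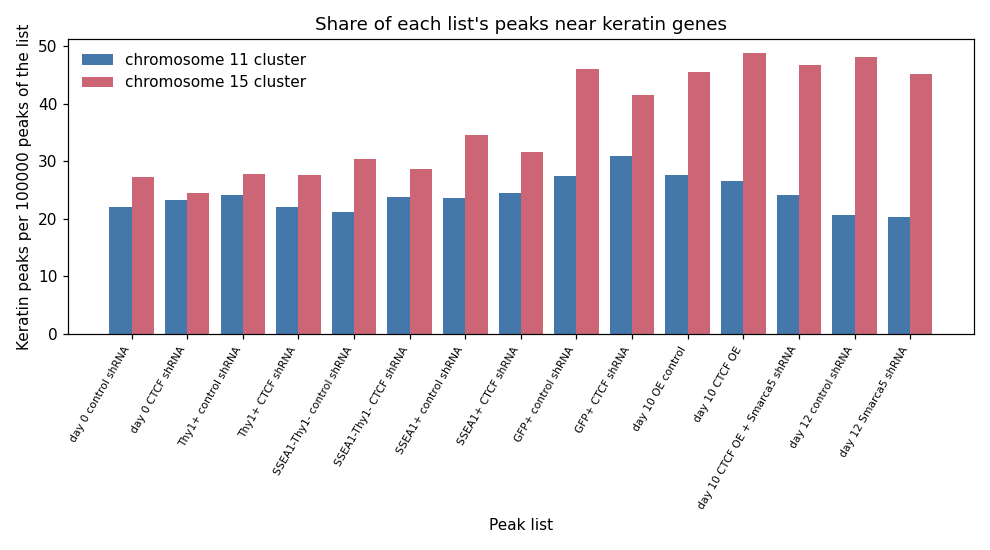
Keratin peaks per 100000 peaks of a list (y axis) for the chromosome 11 cluster (blue bars) and the chromosome 15 cluster (red bars) in the 15 lists. The chromosome 15 bars go from 27.3 in the day 0 control to 46.0 in the GFP+ control and the chromosome 11 bars from 22.1 to 27.4.

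The 2 clusters are given separately here, and a difference between them was not tested. On chromosome 15 the number of keratin peaks was 42 at day 0 and 42 in GFP+ cells, with 18 lost and 18 gained between them. On chromosome 11 it was 34 and 25, with 20 lost and 11 gained. Relative to the whole lists, the log2 ratio of GFP+ to day 0 peak numbers was 0.57 for both clusters together, 0.75 for chromosome 15 and 0.31 for chromosome 11. The whole lists are not limited to gene windows, so these ratios are not relative to peaks near genes alone. Per 100 kb, chromosome 15 windows held 7.56 peaks in both lists, and chromosome 11 windows held 6.62 at day 0 and 4.87 in GFP+ cells. The windows of all protein-coding genes held 7.66 and 5.12. A peak counts as lost when it is in the first list only and as gained when it is in the second list only. Of the 76 keratin peaks at day 0, 50.0% (exact Clopper-Pearson 95% interval 38.3% to 61.7%, counting error over peaks only) were lost by the GFP+ state, against 67.6% of all peaks. The interval lies below the share of all peaks. For chromosome 15 alone the share lost was 42.9% (27.7% to 59.0%), also below it, and for chromosome 11 it was 58.8% (40.7% to 75.4%), which spans it. The intervals of the 2 clusters overlap each other. Of the GFP+ peaks 43.3% (31.2% to 56.0%) were gained, close to the 45.5% of all peaks.

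Without the Krt8 and Krt18 locus the relative log2 ratio was 0.48 (counting interval -0.05 to 1.00) and the share lost was 53.6% (41.2% to 65.7%). With a flank of 20 kb the ratio was 0.41 (-0.03 to 0.85). The intervals of these 2 ratios include 0, whereas that of the ratio of 0.57 does not (0.08 to 1.06). The keratins had fewer peaks per gene than other genes, with a median of 2 against 4 at day 0 and 1 against 3 in GFP+ cells. These counts are not corrected for gene length, and per 100 kb the keratins held 6.27 against 5.12 in GFP+ cells. The share of members with no peak differed by list. It was 15.1% at day 0 (15.4% of all genes), 5.66% in the Thy1+ control (13.9%) and 22.6% in the GFP+ control (17.2%). In the day 12 control, the shortest list, 31 of 53 members (58.5%) had none, against 24.7% of all genes. Per 100 kb that list held 2.81 keratin peaks, against 2.57 for all gene windows.

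Step by step in the control lists, from day 0 to Thy1+ cells 4 keratin peaks were lost (5.26%, against 14.7% of all peaks) and 29 gained (28.7%, against 32.5%). From Thy1+ to SSEA1-Thy1- cells 31 were lost (30.7%, against 35.1%) and 8 gained (10.3%, against 16.5%). From SSEA1-Thy1- to SSEA1+ cells 13 were lost (16.7%, against 19.1%) and 14 gained (17.7%, against 9.91%). From SSEA1+ to GFP+ cells 25 were lost (31.6%, against 48.5%) and 13 gained (19.4%, against 23.5%). The intervals of the first loss (1.45% to 12.9%), of the last loss (21.6% to 43.1%) and of the gain into SSEA1+ cells (10.0% to 27.9%) did not contain the share of all peaks. Consecutive steps share a list and are not independent.

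At the level of single members, 4 keratins had at least 2 more peaks within 10 kb in the GFP+ than in the day 0 control list (7.55% of 53, against 10.8% of all genes). They were Krt78 (7 and 11), Krt8 (4 and 7), Krt42 (1 and 4) and Krt2 (0 and 2). Krt78 lies next to Krt8 and their windows overlap, so some of these peaks count for both. Krt78 also has the longest body of the members (chr15:101946001-101996624), so its window takes in more sequence than the others. At least 2 fewer peaks were found for 6 members (11.3%, against 30.2% of all genes): Krt23 (3 and 0), Krt39 (3 and 0), Krt7 (4 and 1), Krt20 (3 and 1), Krt31 (2 and 0) and Krt83 (4 and 2). The remaining 43 members differed by at most 1 peak. Since a gene with few peaks has less room for a difference of 2, these shares were not read as particular to the keratins. With a flank of 20 kb the members with 2 fewer numbered 18 (34.0%, against 36.4% of all genes), near the share of all genes.

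**Figure D3:**
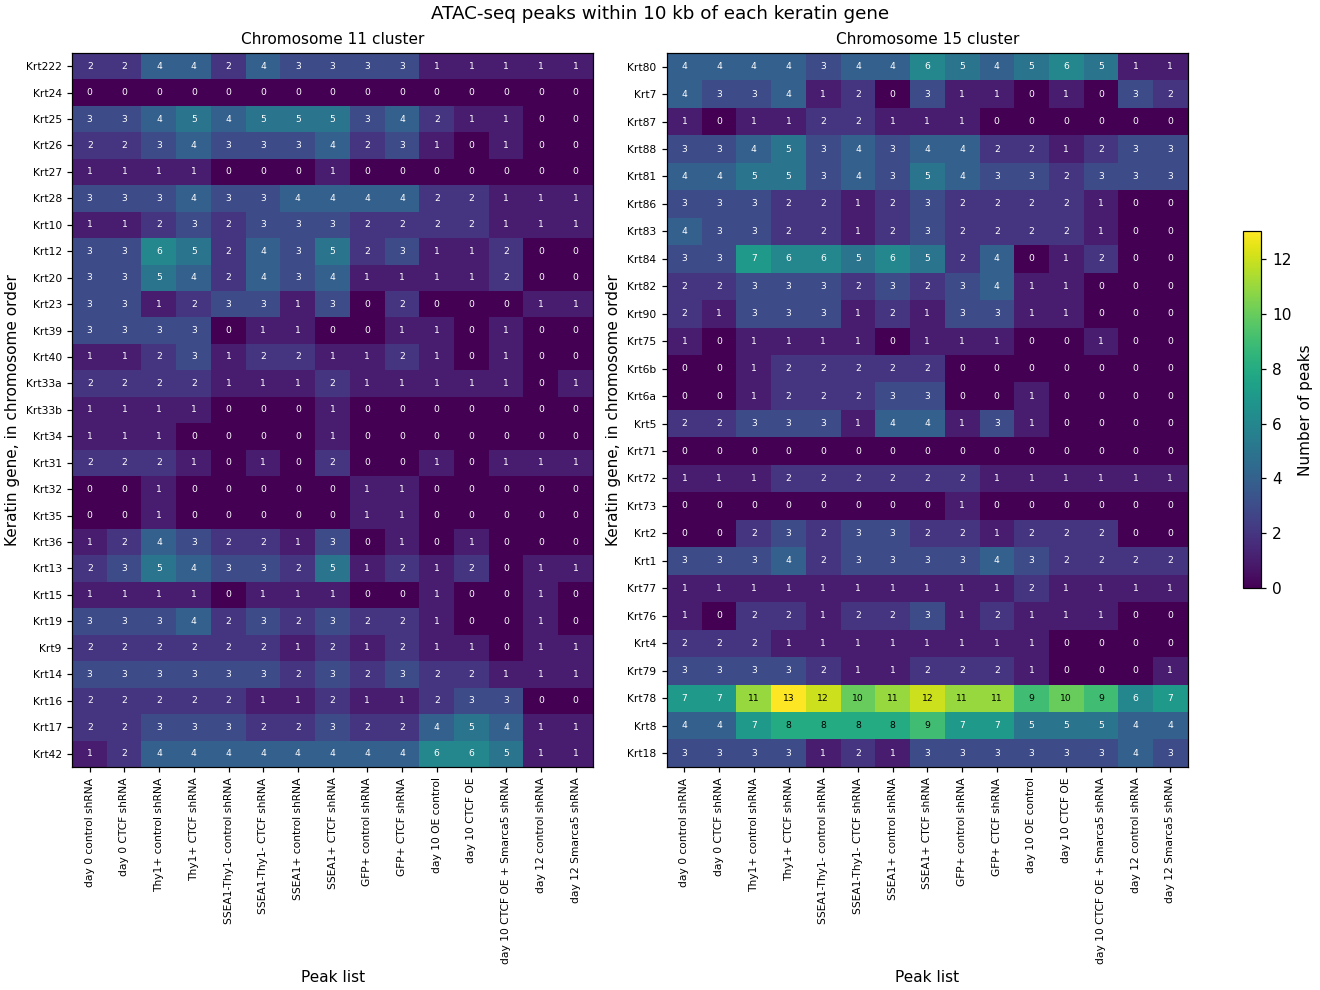
Number of peaks within 10 kb of each keratin gene (rows, in chromosome order) in each of the 15 lists (columns), from dark purple (0) to yellow (13), with the number printed in each cell. Krt78 and Krt8 hold the highest numbers in most lists, Krt24 and Krt71 hold 0 throughout, and the day 12 columns, from the shortest lists, hold the most cells at 0. Krt78 also has the longest gene body and so the longest window.

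Among the simple epithelial keratins (Krt7, Krt8, Krt18, Krt19, Krt20 and Krt23) the control lists held 20, 22, 17, 15 and 14 peaks. Such series of 5 numbers are in the order day 0, Thy1+, SSEA1-Thy1-, SSEA1+ and GFP+ throughout. Krt8 (chr15:101996711-102004342) had 4, 7, 8, 8 and 7 peaks, and 5 at day 10 and 4 at day 12. Krt18 (chr15:102028216-102032026) had 3, 3, 1, 1 and 3 peaks, so that only its start remained open in the SSEA1-Thy1- and SSEA1+ control lists, while sites 2493 bp upstream (chr15:102025389-102026056) and 2653 bp beyond its end (chr15:102034242-102035118) were absent there and present again in GFP+ cells.

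Krt7 (chr15:101412403-101427806) had 4, 3, 1, 0 and 1 peaks. Of its 3 body sites at day 0, 2 (chr15:101414151-101414608 and chr15:101418972-101419376) were absent from the SSEA1-Thy1-, SSEA1+ and GFP+ control lists. The third (chr15:101426302-101426701) was the 1 peak of the SSEA1-Thy1- control and absent from the SSEA1+ and GFP+ controls. The single GFP+ peak was at its start. Krt19 (chr11:100140810-100145926), the smallest keratin and the one without a tail domain, had 3, 3, 2, 2 and 2. A site over the boundary of the gene with the higher coordinate (chr11:100145583-100146293), whose strand the gene table does not give, was open in all 10 day 0 and sorted lists and in the day 10 control. Krt20 (chr11:99428385-99438153), of intestinal and gastric epithelium, had 3, 5, 2, 3 and 1, and Krt23 (chr11:99477973-99493120), another epithelial type I keratin, had 3, 1, 3, 1 and 0.

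The basal keratins had few peaks. Krt5 (chr15:101707069-101712905) had 2, 3, 3, 4 and 1 peaks in the 5 control lists, and 1 at day 10 and 0 at day 12, none of them at its start. Its 2 sites at 2136 bp and 3115 bp from the gene (chr15:101714842-101715241 and chr15:101715821-101716220) were open at day 0 and absent from the GFP+ control. The site inside its body (chr15:101708410-101708809) was open in the SSEA1+ and GFP+ control lists and not at day 0. Krt14 (chr11:100203162-100207510) had 3, 3, 3, 2 and 2, and 2 of its sites (chr11:100200010-100200497 and chr11:100203427-100203835) were open in all 10 day 0 and sorted lists. Krt15, a basal and hair follicle stem cell keratin, had 1, 1, 0, 1 and 0.

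In the suprabasal group, the 5 members had 6, 9, 8, 10 and 8 peaks in all. Krt10 and Krt1, the pair of differentiating keratinocytes, each had a site open in all 15 lists inside the gene (chr11:99385857-99386388 and chr15:101845896-101846390). Krt77 had 1 too (chr15:101859197-101860171). Krt1 totalled 3, 3, 2, 3 and 3 peaks and Krt10 totalled 1, 2, 2, 3 and 2. Krt2 (chr15:101810689-101818956) had 0, 2, 2, 3 and 2. Apart from its start these were 2 sites 7418 bp and 8765 bp from the gene (chr15:101826144-101826606 and chr15:101827451-101827993), both absent at day 0 and open in Thy1+ cells.

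The keratins of activated epidermis, which appear on wounding, differed by gene. Krt6a and Krt6b are near-identical neighbours whose reads can be hard to place, and no source used here gives the mapping filter, so their values are uncertain. Krt6a had 0, 1, 2, 3 and 0 peaks and Krt6b 0, 1, 2, 2 and 0. The site over the higher boundary of Krt6b (chr15:101680138-101680537) was open in all 6 lists of the Thy1+, SSEA1-Thy1- and SSEA1+ cells and in no other list, and the one 565 bp outside Krt6a (chr15:101689163-101689562) in 5 of those 6. Krt17 (chr11:100256215-100261029) had 2, 3, 3, 2 and 2 peaks in the control populations, 4, 5 and 4 in the day 10 lists and 1 and 1 at day 12. A site just outside its lower boundary (chr11:100255662-100256061) was in the 3 day 10 lists and no other, and 1 over its higher boundary (chr11:100260834-100261233) in 2 of them. Krt42 (chr11:100262882-100269951), its neighbour and close paralogue, had 1, 4, 4, 4 and 4, then 6, 6 and 5 at day 10 and 1 and 1 at day 12. Krt16, the type I partner of Krt6, had 2, 2, 2, 1 and 1.

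Among mucosal and corneal keratins, Krt13 had 2, 5, 3, 2 and 1 peaks and Krt4, its type II partner, 2, 2, 1, 1 and 1. Krt12, the corneal keratin (chr11:99415664-99422593), had 3, 6, 2, 3 and 2. The 15 hair shaft keratins had 21, 29, 18, 17 and 14 peaks in all and the 8 of the inner root sheath and companion layer 9, 10, 10, 11 and 10. Krt31 and Krt86, hair shaft keratins of type I and type II, had 2, 2, 0, 0 and 0, and 3, 3, 2, 2 and 2. Krt25, an inner root sheath keratin, had 3, 4, 4, 5 and 3, while its type II counterpart Krt71 had 0 in all 15 lists, as had Krt24. Krt33a with Krt33b and Krt81 with Krt83, Krt86 and Krt87 are also close copies. Krt80, a keratin of many differentiating epithelia, had 4, 4, 3, 4 and 5, with a site over its higher boundary (chr15:101370051-101370743) in all 15 lists. Krt222, a keratin-like gene, had 2, 4, 2, 3 and 3.

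The union of all lists gave 140 keratin sites, 61 on chromosome 11 and 79 on chromosome 15, with 48 of them inside a keratin gene. In all 15 lists 13 were present, 3 on chromosome 11 and 10 on chromosome 15. In the 5 control populations of the sorted series, 32 sites were in each list, and 38 sites were present at day 0 and in GFP+ cells. Another 38 were at day 0 only of these ends and 29 in GFP+ only. A transient group of 23 sites was in at least 1 intermediate control list and at neither end, and 11 of them were in all 3 intermediates. Of the sites that closed, 17 were in day 0 and Thy1+ control lists alone, 10 of them on chromosome 11. Only 7 sites were in the GFP+ control and no earlier control list. A further 9 sites were in day 10 lists only, 6 on chromosome 15 and 3 on chromosome 11, where peaks were placed separately. These classes were not counted over all peaks, so they describe the keratin sites and are not read as particular to them. List sizes differ too, with 194446 peaks in the Thy1+ control and 91337 in the GFP+ control.

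**Figure D4:**
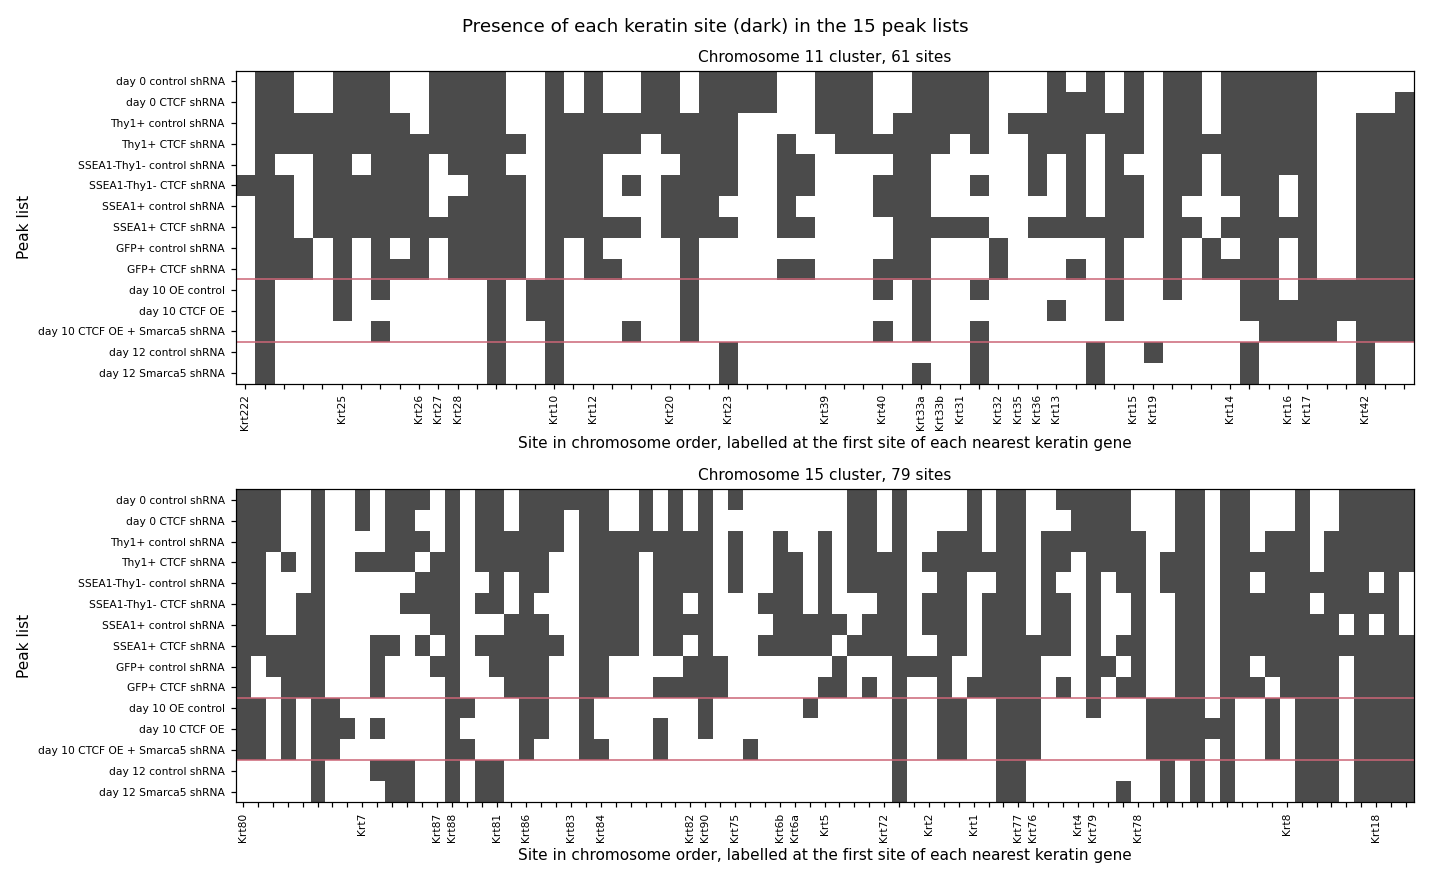
Presence (dark) of each of the 61 chromosome 11 sites and 79 chromosome 15 sites, in chromosome order along the x axis, in the 15 lists (rows); red lines separate the day 0 and sorted, day 10 and day 12 lists. The columns dark throughout are the 13 sites found in all lists, and 10 of them are on chromosome 15.

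CTCF, the zinc finger protein of insulators and domain borders, was knocked down in 5 of the pairs. At day 0 the shRNA list lacked 4 of 76 keratin peaks (5.26%, interval 1.45% to 12.9%, against 4.45% of all peaks lost) and 2 of its 74 were gained (2.70%, 0.33% to 9.42%, against 4.85%). In Thy1+ cells 10 were lost (9.90%, 4.85% to 17.5%, against 8.2%) and 15 gained (14.2%, 8.14% to 22.3%, against 16.3%). In SSEA1-Thy1- cells 10 were lost (12.8%, 6.32% to 22.3%, against 8.74%) and 18 gained (20.9%, 12.9% to 31.0%, against 15.8%).

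In SSEA1+ cells 5 were lost (6.33%, 2.09% to 14.2%, against 7.99%) and 29 gained (28.2%, 19.7% to 37.9%, against 32%). In GFP+ cells 7 were lost (10.4%, 4.30% to 20.3%, against 14.3%) and 15 gained (20%, 11.6% to 30.8%, against 24.3%). Each interval contains the share of all peaks in its pair, and the log2 ratio of keratin peaks relative to the whole lists was between -0.06 and 0.03 in these pairs. A difference between the keratin peaks of both clusters and all peaks was not detectable with CTCF shRNA at this number of peaks.

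**Figure D5:**
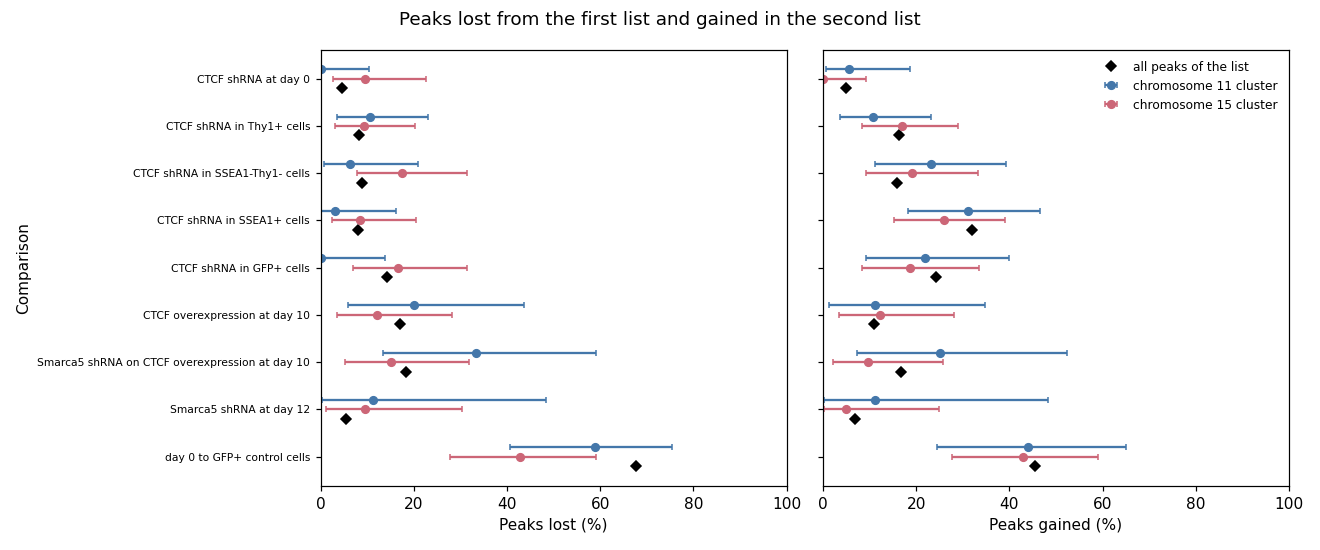
Percent of peaks lost from the first list (left) and gained in the second list (right) for 9 comparisons (rows); circles are the chromosome 11 and chromosome 15 keratin peaks with exact 95% intervals, and black diamonds are all peaks of the list. In the 8 knockdown and overexpression pairs the keratin intervals contain the diamond except for the chromosome 11 loss in GFP+ cells (0 of 25), and from day 0 to GFP+ cells the chromosome 15 loss of 42.9% lies below the 67.6% of all peaks.

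On chromosome 15 the lost peaks numbered 4, 5, 8, 4 and 7, out of 42, 54, 46, 47 and 42. On chromosome 11 they numbered 0, 5, 2, 1 and 0, out of 34, 47, 32, 32 and 25. Chromosome 15 thus had more peaks to lose in each pair. Its loss intervals all contained the share of all peaks and overlapped those of chromosome 11, and a difference between the clusters was not tested. In GFP+ cells the loss of 0 of 25 peaks on chromosome 11 had an interval up to 13.7%, just under the share of all peaks. The gains were 0, 10, 9, 15 and 8 on chromosome 15, out of 38, 59, 47, 58 and 43. They were 2, 5, 9, 14 and 7 on chromosome 11, out of 36, 47, 39, 45 and 32. Over the 5 pairs 58 of the 140 sites were gained in at least 1 pair and 30 lost in at least 1, among them 15 that were gained in 1 pair and lost in another. No site was lost in 3 or more pairs, and 2 were gained in 3. One lies between Krt39 and Krt40 (chr11:99529291-99529701) and was gained in Thy1+, SSEA1-Thy1- and GFP+ cells but lost in SSEA1+ cells. The other lies in the body of Krt78 (chr15:101990522-101990921) and was gained in the same 3 populations and open in both SSEA1+ lists. The state of 67 sites was the same with both shRNAs in all 5 pairs. Such counts over several pairs were not made for all peaks, so they are not read as particular to the keratins. In all 5 pairs the whole list was longer with CTCF shRNA than with the control shRNA.

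Counted by member, at day 0 no keratin had at least 2 more or 2 fewer peaks with CTCF shRNA, against 2.95% and 2.29% of all genes, and 44 of 53 had the same number. In Thy1+ cells Krt78 had 2 more (11 and 13; 1 of 53 or 1.89%, against 15.8% of all genes) and none had 2 fewer (against 3.1%). In SSEA1-Thy1- cells Krt12, Krt20 and Krt222 had 4 in place of 2 (5.66% of members, against 12.9%), while Krt5 (3 and 1), Krt78 (12 and 10) and Krt90 (3 and 1) had 2 fewer (5.66%, against 3.31%). In GFP+ cells Krt23 (0 and 2), Krt5 (1 and 3) and Krt84 (2 and 4) had 2 more (5.66%, against 12.7%) and Krt88 (4 and 2) had 2 fewer (1.89%, against 3.14%). Krt84 is a type II keratin of hair and tongue. As from day 0 to GFP+ cells, a gene with few peaks has less room for a difference of 2. The shares of members in this and the other knockdown and overexpression pairs were therefore not read as particular to the keratins.

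SSEA1+ cells showed the most members with added peaks. At least 2 more peaks were counted for 9 of 53 members (17.0%, against 28.8% of all genes): Krt13 (2 and 5), Krt7 (0 and 3), Krt12 (3 and 5), Krt18 (1 and 3), Krt23 (1 and 3), Krt31 (0 and 2), Krt36 (1 and 3), Krt80 (4 and 6) and Krt81 (3 and 5). None had 2 fewer, against 1.31% of all genes. With a flank of 20 kb 20 members had 2 more (37.7%, against 38.2% of all genes), so the lower share was not seen at that flank. Of the 29 gained keratin peaks 21 were open in the day 0 control (72.4%, against 81.6% of all gained peaks), 24 in the Thy1+ control (82.8%, against 88.9%) and 7 in the GFP+ control (24.1%, against 12.3%). At Krt7, for example, the start site open in GFP+ cells was gained together with 2 body sites open in the day 0 control (chr15:101414151-101414608 and chr15:101426302-101426701). The 8 fibroblast marker genes had 42 peaks in the SSEA1+ control and 85 with CTCF shRNA, and the 6 pluripotent cell markers 40 and 39; the part of this difference in the keratin gains was not tested.

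In Thy1+ cells 8 of the 15 gained keratin peaks were open in the GFP+ control (53.3%, against 25.0% of all gained peaks) and 1 at day 0 (6.67%, against 19.1%). Of the 10 lost ones 9 were open at day 0 (90%, against 68.1%). The fibroblast markers had 92 and 90 peaks in this pair and the pluripotent cell markers 32 and 43. In SSEA1-Thy1- cells 6 of 18 gained keratin peaks were open in the GFP+ control (33.3%, against 24.6%). Of the 10 lost there 7 were open at day 0 (70%, against 66.8%). In GFP+ cells 6 of 15 gained keratin peaks were open at day 0 (40%, against 48.6%). These shares rest on few peaks, have no interval and were not tested.

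CTCF overexpression at day 10 was compared with its own control. Of 53 keratin peaks 8 were lost (15.1%, 6.75% to 27.6%, against 16.9% of all peaks) and of 51 in the overexpression list 6 were gained (11.8%, 4.44% to 23.9%, against 10.9%). No member had at least 2 more or 2 fewer peaks, against 3.22% and 5.36% of all genes. When Smarca5, the ATPase of ISWI chromatin remodellers, was also knocked down, 11 of the 51 were lost (21.6%, 11.3% to 35.3%, against 18.3%) and 7 of 47 gained (14.9%, 6.20% to 28.3%, against 16.8%). Krt13 had 2 fewer peaks (2 and 0; 1.89% of members, against 7.06% of all genes), and no member had 2 more, against 4.4%. With Smarca5 shRNA at day 12, 3 of 30 keratin peaks were lost (10.0%, 2.11% to 26.5%, against 5.4%) and 2 of 29 were gained (6.90%, 0.85% to 22.8%, against 6.81%). No member differed by 2, against 0.964% of all genes with 2 more and 0.42% with 2 fewer. Each of these intervals contains the share of all peaks.

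Related gene groups were counted the same way between the day 0 and GFP+ control lists. The 56 Krtap genes, which encode the matrix proteins of hair, had 48 and 16 distinct peaks, with at least 2 fewer for 13 genes (23.2%, against 30.2% of all genes) and at least 2 more for 1 (1.79%, against 10.8%). The 56 other genes within 300 kb of a keratin had 156 and 141, with 6 higher (10.7%) and 16 lower (28.6%). The 31 keratin partners and regulators, among them desmosome and hemidesmosome proteins and epithelial transcription factors, had 252 and 253, with 11 higher (35.5%), such as Grhl2, Cdh1 and Esrp1, and 7 lower (22.6%), such as Dst, Pkp2 and Trp63. The 15 genes of other intermediate filaments had 81 and 76, with Lmnb1, Nefl and Lmnb2 higher (3 of 15, 20%) and Gfap, Lmna, Bfsp1 and Bfsp2 lower (4 of 15, 26.7%). Over the same lists the 53 keratins had 76 and 67. In the SSEA1+ pair the counts with control and CTCF shRNA were 37 and 51 for Krtap genes, 148 and 171 for the neighbours, 287 and 357 for the partners and regulators and 76 and 100 for other intermediate filaments, against 79 and 103 for the keratins.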

How the data were processed

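Per the submitters' processing notes, the tools were Bowtie2, SAMtools, MACS2, Picard, cutadapt, Trim Galore and FastQC, and the builds GRCm38 and mm10. No source used here gives their versions or settings, the filter on reads that map to several places, any shift for the transposase or the pooling of samples. The deposited lists give the start and end of intervals of 400 bp with a score of 0 throughout, so the authors' files hold positions and no heights or counts, and depth is unknown. From these, overlapping intervals were merged in each list and peaks were given to genes by their centre. Peaks were shared from an overlap of 1 bp. The relative log2 ratio is the log2 ratio of keratin peak numbers minus that of the whole lists. Shares have exact Clopper-Pearson 95% intervals. All 21887 protein-coding genes with 1 position in the RefSeq table (GRCm38.p6) gave the background. With 1 list per group no test was made. The code was tested on simulated lists. The members and lists were chosen with earlier results of these data known. Named genes are fixed anchors of each role, the members with a difference of at least 2 peaks in a comparison and those whose start-site peak was in 1 list of a pair; named sites are their start sites and those changed in at least 3 of 5 CTCF pairs. Further sites and genes were chosen after their values were seen. A wider or narrower flank, assignment by any overlap, unmerged intervals, a 200 bp overlap, leaving out the Krt8 and Krt18 locus or peaks within 1 kb of other genes' ends, and wider start windows were tried.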

Additional observations from a re-analysis of the deposited data

Results flagged for a closer look

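Krt5 had opposite differences in 2 populations with CTCF shRNA, with 3 and 1 peaks (control and CTCF shRNA) in SSEA1-Thy1- cells and 1 and 3 in GFP+ cells, so the changes lie 4 peaks apart. Krt78 had 12 and 10 peaks in SSEA1-Thy1- cells and 11 and 13 in Thy1+ cells, also 4 peaks apart. Neither difference between populations was tested, since each rests on 1 list per group.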

How the results depend on the processing

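Under all alternatives the relative log2 ratios and the shares lost and gained stayed within the counting intervals of their reported values, for all 9 comparisons. This is a weak check, since the alternatives recount many of the same peaks and the intervals are wide. For CTCF shRNA at day 0, for example, the ratio of -0.04 had an interval of -0.53 to 0.44. From day 0 to GFP+ cells the interval of the ratio nevertheless included 0 at 20 kb and without the Krt8 and Krt18 locus. Ratios near 0 changed sign: SSEA1-Thy1- from 0.03 to -0.04 at 5 kb, SSEA1+ from -0.05 to 0.06 at 20 kb, and GFP+ from -0.02 to 0.01, both at 20 kb and without the Krt8 and Krt18 locus. Leaving out the SSEA1+ pair, chosen after seeing the data, left 40 of 58 sites gained and 28 of 30 lost. Counts of members by peak number moved with the flank. At 20 kb the members with at least 2 more peaks under CTCF shRNA (share of all genes at this flank in parentheses) numbered 1 at day 0 (4.09%), 3 for Thy1+ (21.1%), 6 for SSEA1-Thy1- (17.3%), 20 for the SSEA1+ pair (38.2%) and 6 for GFP+ (16.8%), 1 with CTCF overexpression (4.89%), 2 with added Smarca5 shRNA (5.48%) and 7 from day 0 to GFP+ cells (14%). Those with at least 2 fewer numbered 3 in Thy1+ (4.15%) and 4 in GFP+ cells (4.48%), 1 with CTCF overexpression (6.95%), 4 with added Smarca5 shRNA (10.9%) and 18 from day 0 to GFP+ cells (36.4%). The members' shares of 53 were 37.7% for the 20, 34.0% for the 18 and 1.89% to 13.2% for the others. With 5 kb, 0 had 2 more (10.6% of all genes) and 1 had 2 fewer (2.6%) in SSEA1-Thy1- cells, and 0 had 2 fewer in GFP+ cells (2.44%). With a start window of 1 kb, members with a start-site peak (control and CTCF shRNA) numbered 7 and 6 at day 0 and 7 and 9 for Thy1+. They numbered 6 and 6 for SSEA1-Thy1-, 6 and 6 for SSEA1+ and 9 and 6 for GFP+. With 2.5 kb the numbers were 12 and 11 at day 0, 12 and 13 for Thy1+, 10 and 9 for SSEA1-Thy1-, 8 and 11 for SSEA1+ and 11 and 9 for GFP+, 6 in the day 10 control and with CTCF overexpression plus Smarca5 shRNA, and 5 with Smarca5 shRNA at day 12. A wider window takes in more peaks by construction. No paired analysis was possible because each group has 1 deposited list and no result comes from a test. Depth is unknown, and few peaks per member limit what could be seen.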

Other observations

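Of the 140 keratin sites, 12 were in none of the 5 control lists of day 0 and the sorted populations, and 8 were in exactly 1 of the 15 lists. Of the sites open at both day 0 and in GFP+ control cells, 6 were missing from at least 1 intermediate control list, 5 of them on chromosome 15. These classes too were not counted over all peaks. The 4 trophoblast marker genes (Elf5, Cdx2, Tfap2c and Eomes), which belong to another Krt8 and Krt18 expressing cell type, had 18 peaks at day 0 and 23, 23, 26 and 24 across the Thy1+, SSEA1-Thy1-, SSEA1+ and GFP+ control lists, with none of the genes at 0.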
